A study of Mus musculus with 10 samples.

Results

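The genes described here encode the enzymes that build cholesterol and fatty acids, together with a few proteins that control them. They were chosen by symbol, 31 genes among the 24062 gene symbols counted in each library, and all 31 were among the 17632 genes that passed the filter of 5 or more counts in at least 1 library. Jejunum was collected on day 5 after birth from WT (wild-type C57BL/6) pups and from KSR23 pups, with 5 libraries in each group. KSR23 mice carry an interleukin-23 (IL-23) cassette at the ROSA26 locus behind a floxed STOP signal, and a cre recombinase under the keratin 14 (K14) promoter removes that signal in keratinocytes, so that the jejunum was not itself the site the transgene was aimed at. The study usually used WT littermates as controls. The study calls the libraries biological replicates and the labels do not say which mouse each came from, and replicates 4 and 5 were not independent of replicates 1 to 3 in the counts, as described below.

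Cholesterol is made from acetyl-CoA through mevalonate, isoprenoid diphosphates, squalene and lanosterol. Fatty acids are made from the same acetyl-CoA by carboxylation and repeated condensation, and are then desaturated and elongated. The transcription factors SREBP2 (gene Srebf2) and SREBP1 (gene Srebf1) are held in the endoplasmic reticulum by INSIG proteins when sterols are plentiful, and are released to the Golgi and the nucleus when sterols are scarce. SREBP2 drives mainly the sterol enzymes, SREBP1 mainly the fatty acid genes. In the suckling intestine the epithelium takes up milk lipid and also makes sterols of its own.

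SREBPs bind short sterol regulatory elements, and in the promoters of sterol enzymes they act together with factors at CCAAT boxes and GC boxes. RefSeq promoters (GRCm38.p6, 250 bases before to 50 after a start) were at hand for 24 of the 31 genes, and not for Fdps, Fdft1, Sqle, Stard4, Scd1, Scd2 and Fads1. Both strands were searched. The letters TCACNCCAC, one form of the sterol regulatory element, were found in 1 of the 24 genes (Hmgcs1), against 1.49% of the 12918 tested genes with a promoter in the table. CCAAT was found in 20 of 24 genes (83.3%), against 41.9% of the tested genes. The GC box GGGCGG was likewise found in 20 of 24 genes, against 61.1% of the tested genes. The E box CACGTG was found in 4 of 24 (16.7%, against 10.6%), and the shorter sterol element CACNCCAC, which TCACNCCAC contains, in 3 of 24 (12.5%, against 7.78%). Of these 24 genes 12 were called higher in KSR23 over all 10 libraries in the comparison below and 12 were not. CCAAT was present in 12 of the called and 8 of the other genes, the GC box in 11 and 9, the E box in 3 and 1, and the shorter sterol element in 1 and 2. Some genes had several promoters in the table, and a gene counted once if any of them held the letters. The stretches shown here are upstream of the first base of genes described in the results, each read along the gene's strand with the matched letters in capitals. The first holds the sterol regulatory element, the next 5 a CCAAT box (ATTGG where it lies on the other strand) and the last an E box.
Hmgcs1, 137 bases before the start, chr13:119690194-119690242, plus strand: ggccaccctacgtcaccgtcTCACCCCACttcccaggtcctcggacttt
Hmgcs1, 45 bases before the start, chr13:119690286-119690330, plus strand: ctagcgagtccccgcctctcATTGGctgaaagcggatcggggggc
Mvd, 27 bases before the start, chr8:122443425-122443469, minus strand: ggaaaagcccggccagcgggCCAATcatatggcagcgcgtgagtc
Lss, 62 bases before the start, chr10:76531523-76531567, plus strand: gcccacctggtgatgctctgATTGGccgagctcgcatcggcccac
Srebf2, 135 bases before the start, chr15:82147114-82147158, plus strand: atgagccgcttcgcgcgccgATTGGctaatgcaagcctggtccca
Fasn, 90 bases before the start, chr11:120824613-120824657, minus strand: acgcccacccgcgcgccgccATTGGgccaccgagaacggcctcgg
Hsd17b7, 143 bases before the start, chr1:169969323-169969368, minus strand: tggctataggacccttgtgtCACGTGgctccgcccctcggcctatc
These matches describe the letters in a window of 300 bases and say nothing of whether a factor was bound there.

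Library totals were 25.5 to 32.0 M counts (1 M is 1000000) in WT and 31.2 to 60.9 M in KSR23, so that 3 counts corresponded to 0.0427 to 0.119 CPM (counts per 1000000, scaled here with the TMM factors of edgeR). Replicates 4 and 5 of both groups were nearly weighted sums of replicates 1 to 3. When the CPM of a library was fitted as a sum of the CPM of replicates 1 to 3 of its group with weights of 0 or more, over the 5520 (WT) or 5737 (KSR23) genes with a mean over 20 CPM, WT replicate 4 was 0.441 of replicate 1 plus 0.546 of replicate 2, and WT replicate 5 was 0.780 of replicate 1 plus 0.216 of replicate 3, with weights of 0.0130 and 0.00400 for the remaining library. These sums lay within 20% of the measured value at 99.1% and 98.6% of genes. KSR23 replicate 4 was 0.585, 0.254 and 0.162 of replicates 1, 2 and 3 (within 20% at 95.6% of genes), and KSR23 replicate 5 was 0.0370, 0.273 and 0.691 of them (88.7%). A library of replicates 1 to 3 fitted from the other two of its group came within 20% at 19.0 to 40.9% of genes. Replicates 4 and 5 were the highest or lowest of their group at 8.15 to 17.7% of genes, against 45.4 to 76.5% for replicates 1 to 3. How this came about was not tested. With no more than 3 independent libraries a group, the p-values over 10 libraries are too small and the SDs over 5 understate the spread, so that the adjusted p of a gene is given with and without replicates 4 and 5.

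Counts of 4 Y-linked genes were 492 to 6347 in the WT libraries, 9035 and 4330 in KSR23 replicates 1 and 4, and 9, 1 and 1 in KSR23 replicates 2, 3 and 5. Long transcripts were relatively more abundant in KSR23. The median deviation from the gene's mean log2 CPM in genes with over 5000 exonic bases minus that in genes with under 1500 was -0.18, -0.02, -0.35, -0.11 and -0.22 in the 5 WT libraries and 0.21, 0.11, 0.11, 0.25 and 0.20 in KSR23, and the groups did not overlap.

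To ask whether the synthesis genes differed between KSR23 and WT jejunum, counts of all 17632 genes were compared by the edgeR likelihood ratio test with Benjamini-Hochberg adjustment, and a gene is called at an adjusted p under 0.05. Over all 10 libraries 16 of the 31 genes were called, all higher in KSR23 (0 lower), and over replicates 1 to 3 alone 2 were called, Sqle and Lss, both higher. Of all tested genes 9.73% were called higher and 8.76% lower over 10 libraries, and 2.01% higher and 1.35% lower of 17243 over replicates 1 to 3. None of the 31 reached an unadjusted p under 0.05 in the lower direction in either fit, and in the higher direction 18 did over 10 libraries and 14 over replicates 1 to 3. The share of all tested genes at this unadjusted cut was not computed, so that such counts, here and below, have no background beside them. With edgeR's quasi-likelihood F test in its place, the same 16 genes were called higher and 0 lower over 10 libraries, against 8.47% of all genes upward and 6.91% downward, and DESeq2 called 16 higher (10.7% of all genes) and 0 lower (9.96%). Over replicates 1 to 3 the quasi-likelihood test called 0 of the 31 genes, with 14 at an unadjusted p under 0.05, and 140 of all genes (0.574% higher and 0.238% lower). The median log2 fold change of the 31 genes was 0.89, against 0.03 over all tested genes. Of the 31 values 29 were positive and 2 negative, against 9010 and 8622 of all 17632. Over replicates 1 to 3 the median was 1.04, against 0.04, with 30 of 31 values positive. For 10 of the 31 genes every KSR23 library lay above every WT library (Hmgcs1, Mvd, Idi1, Sqle, Lss, Cyp51, Msmo1, Dhcr7, Acly and Fasn), and for none was the order the opposite. Over all tested genes 7.41% were separated in this way with KSR23 higher and 6.99% with KSR23 lower. Replicates 1 to 3 alone separated the same 10 genes, against 9.35% of all genes with KSR23 higher and 9.43% with KSR23 lower. Below, a gene is called when it was called over all 10 libraries, and the log2 fold change and adjusted p from replicates 1 to 3 follow those from all 10.

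When the Y-linked share of each library entered as a covariate, 7 genes were called (Mvd, Idi1, Sqle, Lss, Cyp51, Srebf2 and Fasn), all higher, against 5.81% of all genes higher and 7.81% lower. The median log2 fold change of the 31 genes was then 0.64. Without KSR23 replicate 5, 11 genes were called (7.56% of all genes higher and 7.28% lower), the lowest count when any 1 library was left out. The 5 lost were Fdps, Fdft1, Hsd17b7, Sc5d and Stard4. Leaving out 1 library keeps libraries that were nearly sums of others in the fit. In bulk tissue, fewer cells of a type and less RNA per cell cannot be told apart.

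**Figure D1:**
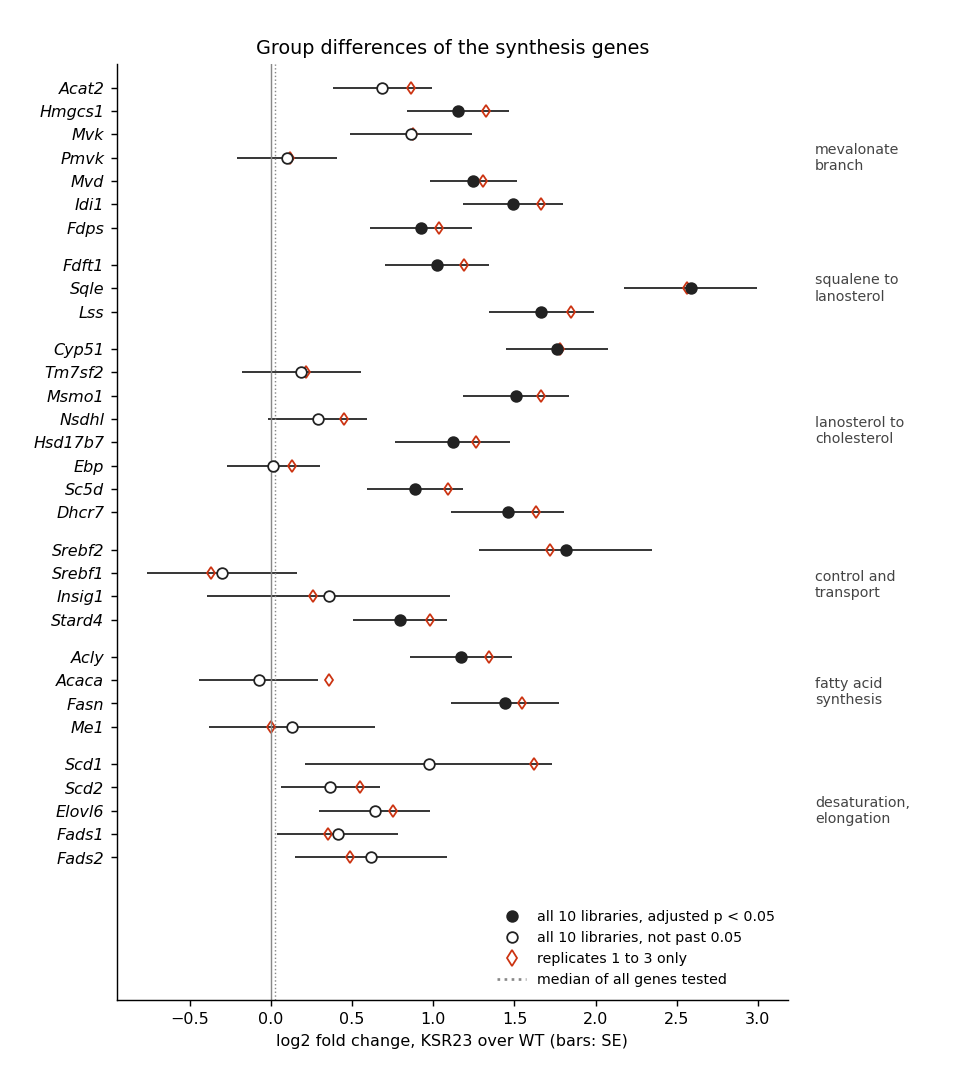
Log2 fold change of KSR23 over WT for the 31 genes, grouped by role. Circles are the fit of all 10 libraries with SE bars, filled where the adjusted p was under 0.05, and diamonds are replicates 1 to 3 alone. The 16 filled circles run from 0.80 (Stard4) to 2.59 (Sqle), and the dotted line marks the median of all tested genes at 0.03.

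Over the whole table the share called higher rose with exonic length and the share called lower fell, from 5.35% higher and 20.6% lower among 1852 genes of up to 1500 bases to 12.8% higher and 3.75% lower among 4666 genes of over 6000 bases. The medians of the synthesis genes were also higher in longer classes. Of the 3 members of 1500 to 2500 bases 1 was called higher, with a median log2 fold change of 0.10, against 6.58% and -0.29 over all genes of that length. Of the 7 of 2500 to 4000 bases 1 was called (median 0.61, against 8.90% and 0.00), of the 15 of 4000 to 6000 bases 10 (median 0.97, against 11.4% and 0.16) and of the 6 longer ones 4 (median 1.48, against 12.8% and 0.24). With offsets that follow exonic length in each library, an alternative chosen after seeing the data, 15 genes were called higher (8.72% of all genes) and 0 lower (7.18%), of which 13 were among the 16. Hsd17b7, Sc5d and Stard4 were lost, and Acat2 and Mvk were gained. The median of the 31 genes was then 0.85.

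The mevalonate branch turns acetyl-CoA into farnesyl diphosphate. Of its 7 genes 4 were called higher (Hmgcs1, Mvd, Idi1 and Fdps), with a median log2 fold change of 0.92. Hmgcs1 (chromosome 13, 119690379 to 119708260, plus strand) encodes HMG-CoA synthase, which commits acetoacetyl-CoA to the pathway. It had 106, 74.6, 50.1, 87.1 and 100.0 CPM in the WT libraries, given in the order of replicates 1 to 5 here and below, and 116, 190.4, 256, 136 and 232 CPM in KSR23. All KSR23 libraries were above all WT libraries, although the lowest KSR23 library was close to the highest WT one. The mean was 83.6 ± 22.3 CPM in WT and 186 ± 60.0 CPM in KSR23 (SD, n = 5; edgeR log2 fold change 1.15 with a standard error of 0.31, adjusted p = 0.00328, and 1.32 with adjusted p = 0.208 in replicates 1 to 3).

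Idi1 encodes the isomerase that interconverts the 2 isoprenoid building blocks. Its libraries had 5.39, 3.39, 3.89, 5.36 and 5.78 CPM in WT and 8.59, 15.3, 15.3, 11.8 and 15.9 CPM in KSR23. The groups were clearly apart, with KSR23 replicate 1 the lowest of its group (edgeR log2 fold change 1.49 with a standard error of 0.31, adjusted p = 5.23e-05, and 1.67 with adjusted p = 0.0794 in replicates 1 to 3). Mvd, which encodes the decarboxylase that makes isopentenyl diphosphate, had 10.99, 11.4, 12.7, 13.4 and 11.5 CPM in WT and 22.4, 37.1, 25.0, 28.9 and 28.7 CPM in KSR23. WT libraries differed little among themselves, and again no KSR23 library reached down to them (edgeR log2 fold change 1.24 with a standard error of 0.27, adjusted p = 0.000105, and 1.30 with adjusted p = 0.200 in replicates 1 to 3). Mvd and Idi1 were called without each library in turn.

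Fdps, farnesyl diphosphate synthase, had 52.0 to 99.2 CPM in WT and 87.9 to 204 CPM in KSR23, so that the groups overlapped (edgeR log2 fold change 0.92 with a standard error of 0.31, adjusted p = 0.0247, and 1.04 with adjusted p = 0.406 in replicates 1 to 3). It stayed called in 5 of the 10 fits that each left out 1 library. It was lost without WT replicate 2, 3 or 4 and without KSR23 replicate 3 or 5, where the adjusted p reached 0.0918. Of its 75-base stretches 23.5% also occurred in another gene, mainly Gm43738, which overlaps it on the same strand. Reads from these stretches could have been lost or moved. The same share was 23.6% for Idi1, 33.9% for Acat2 and 9.79% for Hmgcs1.

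The other genes of this branch were not called. Acat2, the cytosolic thiolase that makes acetoacetyl-CoA, had 36.8 to 62.7 CPM in WT and 56.4 to 130.0 CPM in KSR23 (edgeR log2 fold change 0.69 with a standard error of 0.30, adjusted p = 0.0999, and 0.87 with adjusted p = 0.533 in replicates 1 to 3), and it was called without KSR23 replicate 1. Mvk, mevalonate kinase, had 4.12 to 8.70 and 5.41 to 18.7 CPM (edgeR log2 fold change 0.86 with a standard error of 0.38, adjusted p = 0.0953, and 0.87 with adjusted p = 0.633 in replicates 1 to 3), and it was called without KSR23 replicate 3. Pmvk, phosphomevalonate kinase, had a mean of 33.0 ± 4.17 CPM in WT and 35.3 ± 12.6 CPM in KSR23 (SD, n = 5), for a log2 difference of 0.10 (SE 0.31), and its sign changed when library totals alone were used for scaling.

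Squalene and lanosterol are made from farnesyl diphosphate by the products of Fdft1, Sqle and Lss, and all 3 genes were called higher. Sqle had the largest difference of the 31 genes. It encodes squalene epoxidase, an oxygen-requiring and rate-limiting enzyme of the sterol branch (chromosome 15, 59315077 to 59331192, plus strand). In WT it had 15.9, 31.1, 26.7, 25.6 and 17.2 CPM, and in KSR23 129, 254, 41.5, 152 and 122 CPM. KSR23 replicate 2 was the highest and replicate 3 by far the lowest of the KSR23 libraries, yet the lowest was still above all WT libraries. The mean was 6.00-fold higher in KSR23, 23.3 ± 6.49 against 139.9 ± 76.4 CPM (SD, n = 5; edgeR log2 fold change 2.59 with a standard error of 0.41, adjusted p = 1.51e-07, and 2.56 with adjusted p = 0.0171 in replicates 1 to 3). By the quasi-likelihood test the adjusted p was 0.00144 over 10 libraries and 0.164 over replicates 1 to 3.

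Lss encodes lanosterol synthase, which folds squalene epoxide into the sterol ring system. It had 19.2, 15.6, 10.5, 20.2 and 17.1 CPM in WT and 31.3, 60.1, 68.1, 37.7 and 65.3 CPM in KSR23. Here KSR23 replicate 3 was the highest library and replicate 1 the lowest, whereas replicate 3 was the lowest KSR23 library for Sqle, and the groups did not overlap (edgeR log2 fold change 1.67 with a standard error of 0.32, adjusted p = 1.68e-05, and 1.85 with adjusted p = 0.0478 in replicates 1 to 3). Over replicates 1 to 3 the quasi-likelihood adjusted p was 0.161. Fdft1, squalene synthase, had 33.0 to 56.9 CPM in WT and 52.3 to 126 CPM in KSR23, with overlap between the groups (edgeR log2 fold change 1.02 with a standard error of 0.32, adjusted p = 0.0136, and 1.19 with adjusted p = 0.315 in replicates 1 to 3). It was lost without KSR23 replicate 5 (adjusted p = 0.0546 by edgeR). Of its stretches 21.8% occurred in another gene, mainly Ctsb, which overlaps it on the opposite strand.

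**Figure D2:**
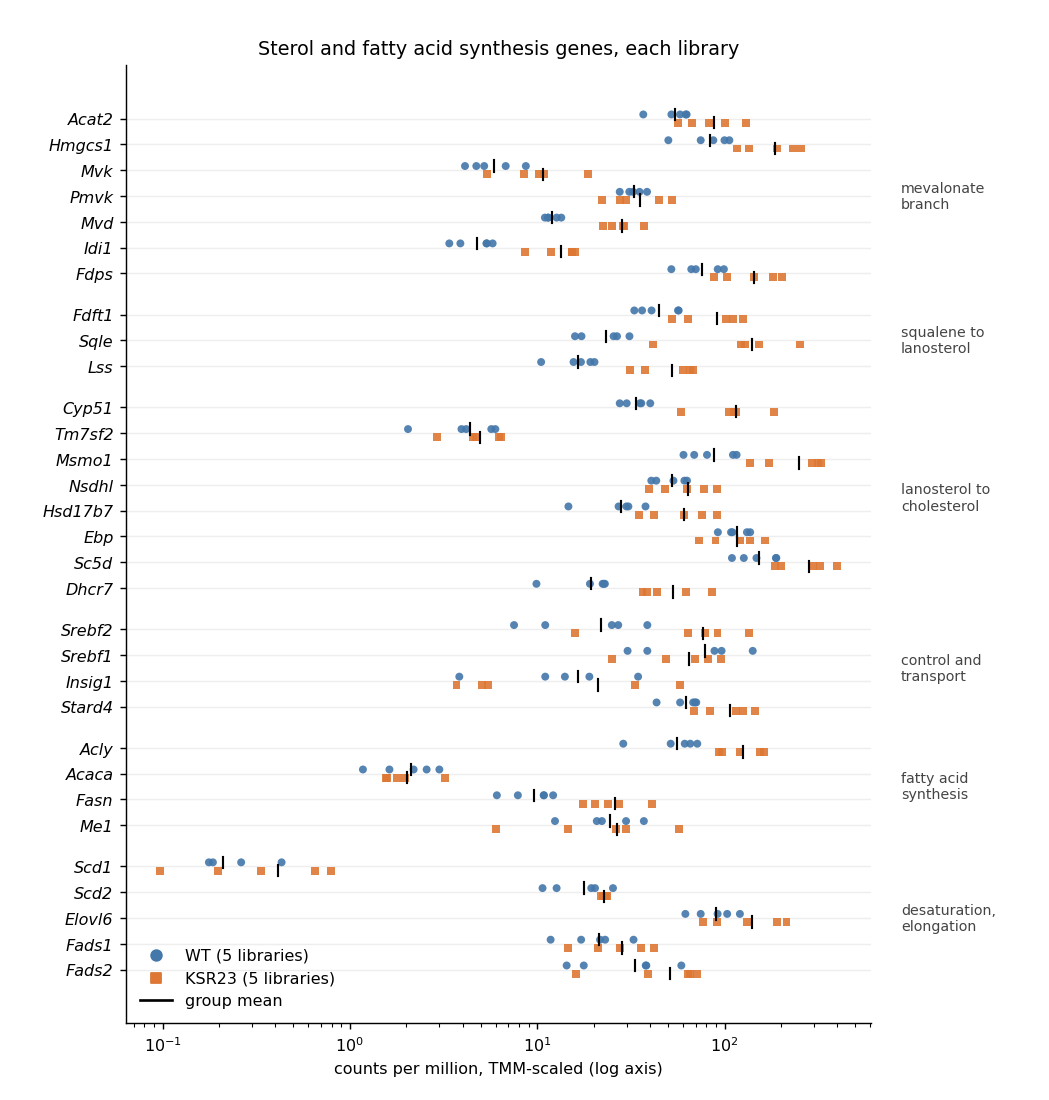
TMM-scaled CPM (log axis) of each of the 31 genes in each of the 10 libraries, with WT as circles, KSR23 as squares and a tick at the group mean. For the 10 genes named above as separated, the leftmost square lies to the right of all circles. The WT library in which Scd1 had 0 counts has no place on the log axis. Sqle has the widest gap between the means, 23.3 against 139.9 CPM.

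The conversion of lanosterol to cholesterol removes 3 methyl groups and moves the double bonds. Of the 8 enzymes in the list 5 were called higher (Cyp51, Msmo1, Hsd17b7, Sc5d and Dhcr7). Cyp51, the lanosterol demethylase that opens this stage, had 27.6, 40.1, 36.0, 35.4 and 30.0 CPM in WT and 106, 183, 58.6, 115 and 112 CPM in KSR23. As for Sqle, replicate 2 was the highest and replicate 3 the lowest KSR23 library, and the groups did not overlap. The mean was 3.39-fold higher (edgeR log2 fold change 1.76 with a standard error of 0.31, adjusted p = 1.72e-06, and 1.78 with adjusted p = 0.0655 in replicates 1 to 3).

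Msmo1 encodes the monooxygenase that starts the removal of the remaining pair of methyl groups. It had 116, 60.4, 68.9, 80.6 and 111 CPM in WT and 136, 292, 329, 173 and 315 CPM in KSR23. Again the groups were separate, and KSR23 replicate 1 came closest to WT (edgeR log2 fold change 1.51 with a standard error of 0.33, adjusted p = 0.000129, and 1.66 with adjusted p = 0.0759 in replicates 1 to 3). Hsd17b7, the ketoreductase of the same cycle, overlapped between the groups, with 14.7 to 37.9 CPM in WT and 35.0 to 91.0 CPM in KSR23 (edgeR log2 fold change 1.12 with a standard error of 0.35, adjusted p = 0.0147, and 1.26 with adjusted p = 0.338 in replicates 1 to 3). It was lost without KSR23 replicate 5 (adjusted p = 0.0566 by edgeR). The dehydrogenase of this cycle, Nsdhl on the X chromosome, was not called, with 40.7 to 63.0 CPM in WT and 39.7 to 90.8 CPM in KSR23 (edgeR log2 fold change 0.29 with a standard error of 0.30, adjusted p = 0.572, and 0.45 with adjusted p = 0.827 in replicates 1 to 3).

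Dhcr7 encodes the reductase that yields cholesterol from its dehydro precursor. It had 22.7, 22.3, 9.91, 19.1 and 23.0 CPM in WT and 36.5, 43.5, 86.1, 38.4 and 62.2 CPM in KSR23. WT replicate 3 was far below the other WT libraries, and KSR23 replicate 3 was the highest of all, with no overlap between the groups (edgeR log2 fold change 1.46 with a standard error of 0.35, adjusted p = 0.000736, and 1.63 with adjusted p = 0.145 in replicates 1 to 3). Sc5d, the desaturase of the step before, had 109.5 to 189 CPM in WT and 187 to 399.9 CPM in KSR23, where the lowest KSR23 library was just under the highest WT library (edgeR log2 fold change 0.89 with a standard error of 0.30, adjusted p = 0.0208, and 1.09 with adjusted p = 0.324 in replicates 1 to 3). It was not called without WT replicate 3, KSR23 replicate 3 or KSR23 replicate 5 (adjusted p up to 0.0711 by edgeR).

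Ebp and Tm7sf2 were not called. Ebp, the sterol isomerase, is also on the X chromosome. Its mean was 116 ± 18.4 CPM in WT and 117 ± 36.6 CPM in KSR23 (SD, n = 5). The log2 fold change of 0.01 (SE 0.29) was one whose sign changed with the scaling. Tm7sf2, a sterol reductase, had 2.04 to 5.98 CPM in WT and 2.90 to 6.38 CPM in KSR23 (log2 fold change 0.19, SE 0.36). Of its stretches 8.83% were shared with Vps51.

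Of the 4 control and transport genes Srebf2 and Stard4 were called higher, and Srebf1 and Insig1 were not. Srebf2 (chromosome 15, 82147181 to 82205379, plus strand) had 7.52, 38.7, 25.0, 27.1 and 11.04 CPM in WT and 78.7, 135, 15.9, 91.7 and 63.6 CPM in KSR23. The groups were uneven. KSR23 replicate 3 lay within the WT range, while the other KSR23 libraries were above all WT libraries. The mean was 21.9 ± 12.7 CPM in WT and 76.9 ± 43.2 CPM in KSR23 (SD, n = 5; edgeR log2 fold change 1.81 with a standard error of 0.53, adjusted p = 0.00901, and 1.72 with adjusted p = 0.347 in replicates 1 to 3; quasi-likelihood adjusted p = 0.0406). It stayed called without each library in turn, but not in replicates 1 to 3 alone.

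Srebf1 had 30.4, 141, 96.4, 88.4 and 38.7 CPM in WT and 82.0, 95.8, 25.2, 69.5 and 48.8 CPM in KSR23. WT replicates 1 and 5 and KSR23 replicates 3 and 5 were low and the groups overlapped throughout (edgeR log2 fold change -0.30 with a standard error of 0.46, adjusted p = 0.721, and -0.37 with adjusted p = 0.904 in replicates 1 to 3). The counts do not separate the transcripts of SREBP1a and SREBP1c, which come from different starts of this gene. Insig1 encodes the protein that retains the SREBPs and is itself a target of theirs. It had 3.84, 19.0, 34.6, 14.1 and 11.04 CPM in WT and 58.1, 3.71, 5.45, 33.1 and 5.08 CPM in KSR23. Within KSR23, replicates 1 and 4 were several times higher than the other 3, a spread larger than any difference between the groups (edgeR log2 fold change 0.36 with a standard error of 0.75, adjusted p = 0.803, and 0.26 with adjusted p = 0.960 in replicates 1 to 3).

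Stard4, a carrier of cholesterol between membranes, had 43.4 to 70.6 CPM in WT and 68.7 to 146 CPM in KSR23, where only KSR23 replicate 1 reached into the WT range (edgeR log2 fold change 0.80 with a standard error of 0.29, adjusted p = 0.0381, and 0.98 with adjusted p = 0.423 in replicates 1 to 3). Its call was the least stable of the 16. It held in 3 of the 10 fits without 1 library (without WT replicate 4, KSR23 replicate 1 or KSR23 replicate 4), and was lost with other scalings (adjusted p up to 0.115 when 1 library was left out, by edgeR).

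Among the genes of fatty acid synthesis Acly and Fasn were called higher, and Acaca and Me1 were not. Acly encodes ATP citrate lyase, which supplies cytosolic acetyl-CoA to both pathways. It had 71.5, 51.6, 28.8, 65.7 and 61.3 CPM in WT and 93.2, 121, 162, 96.6 and 156 CPM in KSR23. No KSR23 library fell within the WT range (edgeR log2 fold change 1.17 with a standard error of 0.31, adjusted p = 0.00266, and 1.34 with adjusted p = 0.202 in replicates 1 to 3). Fasn, the fatty acid synthase itself (chromosome 11, 120805846 to 120824547, minus strand), had 10.8, 12.2, 6.09, 10.9 and 7.88 CPM in WT and 24.0, 41.1, 17.6, 27.2 and 20.2 CPM in KSR23. The groups were separate here too, with KSR23 replicate 3 closest to WT, and the mean was 2.72-fold higher (edgeR log2 fold change 1.44 with a standard error of 0.33, adjusted p = 0.000383, and 1.54 with adjusted p = 0.163 in replicates 1 to 3). Both stayed called without each library in turn, and neither was called in replicates 1 to 3 alone. With the Y-linked share as a covariate Fasn stayed called and Acly did not.

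Acaca, acetyl-CoA carboxylase, was counted at 1.17 to 3.004 CPM in WT and 1.56 to 3.22 CPM in KSR23 (edgeR log2 fold change -0.08 with a standard error of 0.37, adjusted p = 0.919, and 0.36 with adjusted p = 0.889 in replicates 1 to 3). Of its stretches 26.8% occurred in another gene, mainly Gm5182. Me1, a malic enzyme that supplies NADPH, had 12.4 to 37.1 CPM in WT and 6.00 to 57.0 CPM in KSR23, where KSR23 held both the lowest library (replicate 3) and the highest (replicate 2) of all 10 (log2 fold change 0.13, SE 0.51).

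None of the 5 desaturase and elongase genes was called by the likelihood ratio, quasi-likelihood or DESeq2 test, and 0 of the 5 had an unadjusted p under 0.05, although all 5 log2 fold changes were positive, with a median of 0.62. Elovl6, which elongates palmitate to stearate, had 61.8 to 121 CPM in WT and 77.0 to 214 CPM in KSR23 (edgeR log2 fold change 0.64 with a standard error of 0.34, adjusted p = 0.195, and 0.75 with adjusted p = 0.650 in replicates 1 to 3), and was called without KSR23 replicate 1. Fads2 and Fads1, the desaturases of polyunsaturated fatty acids, had log2 fold changes of 0.62 (SE 0.47) and 0.41 (SE 0.37). Scd2, a desaturase that makes monounsaturated fatty acids, was almost even among KSR23 libraries, 22.8 ± 0.748 CPM against 17.7 ± 5.99 CPM in WT (SD, n = 5), for a log2 difference of 0.37 (SE 0.30). Its paralog Scd1 was close to the floor, with 0 to 15 counts in a WT library and 3 to 56 counts in a KSR23 library, and a difference was not detectable at this depth.

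The libraries of a group did not rank alike for all genes. KSR23 replicate 3 was the highest of its group for 12 of the 18 sterol enzymes and the lowest for 4 (Mvk, Sqle, Cyp51 and Tm7sf2), and it was also the lowest for Srebf2, Srebf1, Fasn, Me1, Fads1 and Fads2. KSR23 replicate 1 was the lowest for the other 14 sterol enzymes. In WT a similar split was seen. Replicate 1 was the highest for 8 sterol enzymes and the lowest for 5, among them the same Mvk, Sqle, Cyp51 and Tm7sf2, and it had the lowest Srebf2, Srebf1, Insig1, Me1, Fads1 and Fads2. The split was not particular to synthesis genes. Krt8, an epithelial marker, was also lowest in WT replicate 1 (164 CPM) and KSR23 replicate 3 (185 CPM). These 2 libraries were the highest or lowest of their group at 68.0% and 76.5% of genes. Each KSR23 library nevertheless exceeded all WT libraries at 10 to 16 of the 18 sterol enzymes, 10 of them in replicate 1 and 16 in replicate 3. Of all tested genes 26.5 to 30.5% lay above all WT libraries in a given KSR23 library, 27.6% in replicate 1 and 30.5% in replicate 3.

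**Figure D3:**
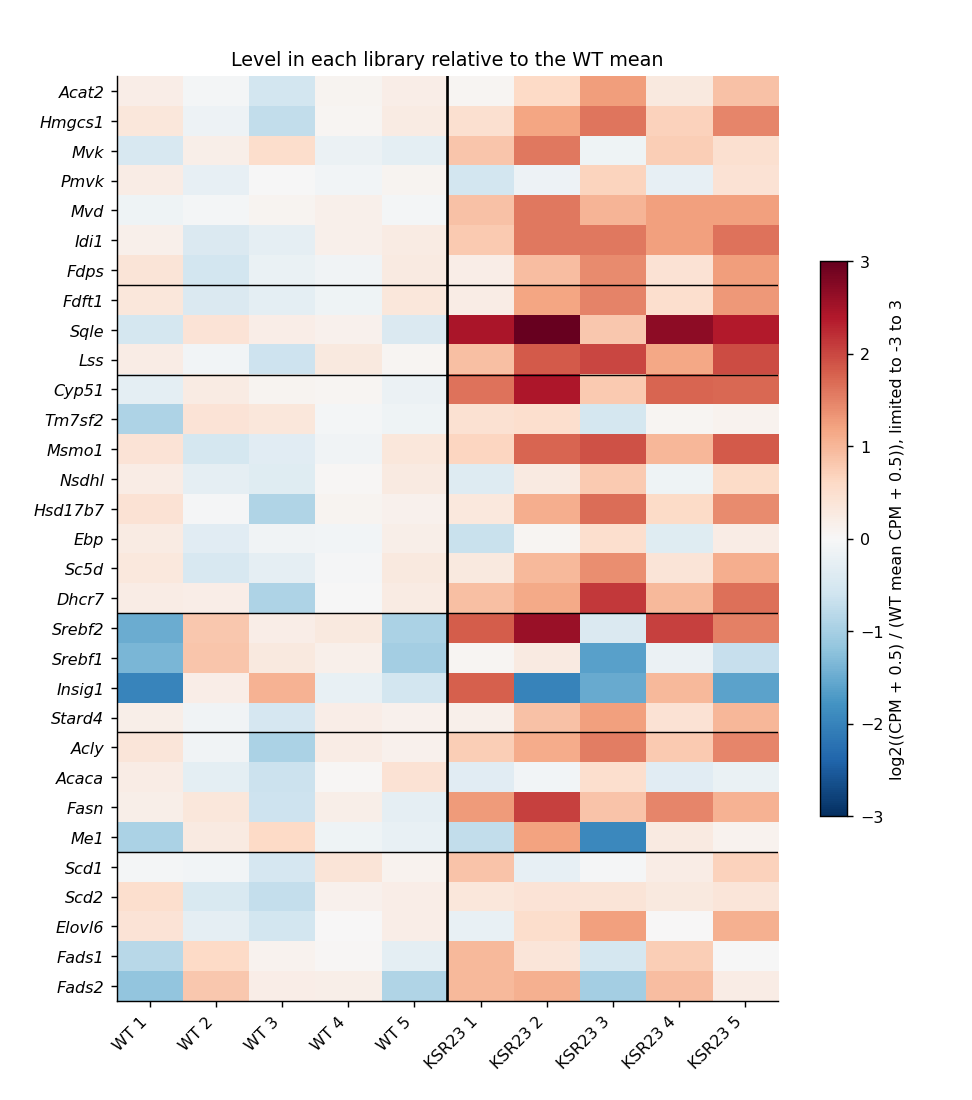
Level of each gene (rows, grouped by role) in each library (columns) as log2((CPM + 0.5) / (WT mean CPM + 0.5)), with colours limited to -3 to 3. Among the KSR23 libraries the Sqle and Cyp51 rows are palest in replicate 3, where Lss and Dhcr7 are darkest, and Insig1 is high only in KSR23 replicates 1 and 4 among the KSR23 libraries.

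Summed over the 18 sterol enzymes, the WT libraries had 1012, 708, 695, 838 and 984 CPM and the KSR23 libraries 1157, 2003, 2146, 1349 and 2019 CPM. All KSR23 sums were above all WT sums, and the ratio of the means was 2.05. The sums nearest to WT were those of KSR23 replicates 1 and 4, the KSR23 libraries with Y-linked counts (9035 and 4330), while replicates 2, 3 and 5, with 9, 1 and 1, had the higher sums. In WT the order was not the same, since replicate 3 had the fewest Y-linked counts (492) and the lowest sum. The part of the Y-linked split in the result was not tested beyond the covariate fit given above. For the 9 fatty acid genes (4 of synthesis and 5 of desaturation and elongation) the sums were 269.9, 274, 207, 272 and 252 CPM in WT and 341, 475, 457, 368 and 479 CPM in KSR23, again without overlap and with a ratio of 1.66. All 31 genes together took 0.0981 to 0.147% of the counts in WT and 0.206 to 0.281% in KSR23.

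**Figure D4:**
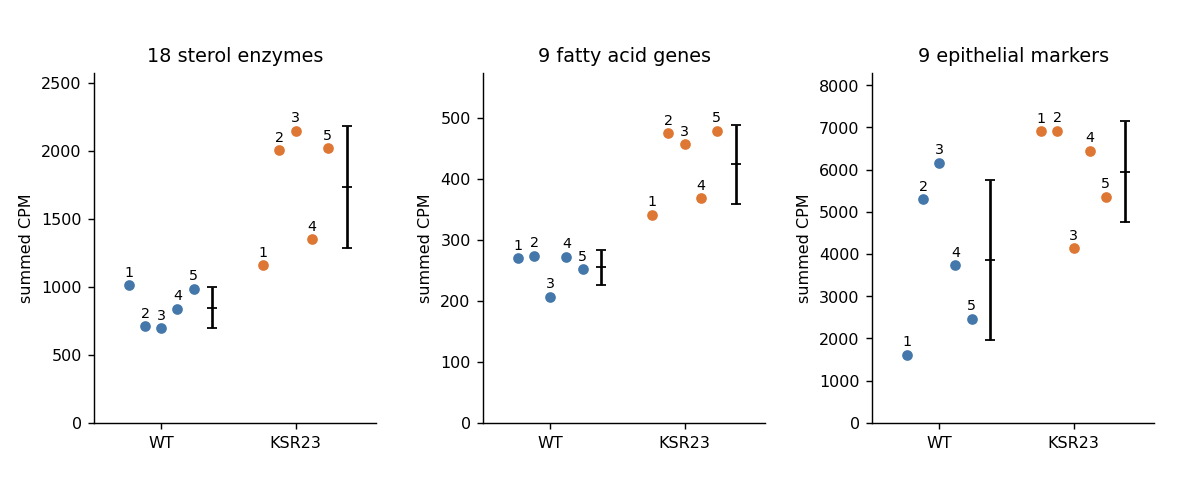
Summed CPM of the 18 sterol enzymes, the 9 fatty acid genes and 9 epithelial marker genes in each library, with the replicate number at each point and the group mean ± SD beside the points. Replicates 4 and 5 were nearly sums of replicates 1 to 3. The sums of both synthesis groups do not overlap between WT and KSR23, while those of the epithelial markers do.

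Levels were also compared per kilobase of the union of a gene's annotated exons, which can be longer than the transcript expressed. By this measure Ebp was the highest of the 31 genes in WT at 50.2 ± 7.95 CPM per kilobase (SD, n = 5). It was followed by Sc5d at 31.3 ± 7.36, Acat2 at 21.3 ± 4.19 and Pmvk at 19.2 ± 2.43. From Acat2 downwards to Fdps at 18.1 ± 4.59, which was 7th, neighbours lay within 1 SD of each other. The uncalled genes Ebp, Acat2, Pmvk and Nsdhl were thus among the 5 highest in WT by this measure. In KSR23 the order was led by Sc5d at 58.0 ± 18.3, Ebp at 50.7 ± 15.9, Msmo1 at 40.6 ± 14.3 and Hmgcs1 at 40.5 ± 13.1 CPM per kilobase, whose ranges of mean ± SD overlapped. Sqle was 21st in WT at 4.20 ± 1.17 and 8th in KSR23 at 25.2 ± 13.8 CPM per kilobase. Scd1 was last in both groups.

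As background for the marker lists, 9.73% of all tested genes were called higher and 8.76% lower over 10 libraries. Over replicates 1 to 3 the shares were 2.01% and 1.35%. The epithelial markers of the list (Vil1, Epcam, Cdh1, Cdx1, Cdx2, Krt8, Krt20, Lgals4 and Alpi) were all detected, and 2 of 9 were called higher in KSR23 (Cdh1 and Krt20, of which Krt20 also over replicates 1 to 3). Their summed CPM was 1611, 5293, 6168, 3735 and 2466 in the WT libraries and 6911, 6916, 4137, 6442 and 5362 in KSR23, with means of 3855 ± 1897 and 5954 ± 1197 CPM (SD, n = 5), and the groups overlapped. WT replicate 1 and KSR23 replicate 3 had the lowest epithelial and the highest sterol enzyme sum of their groups, whereas KSR23 replicate 2 was high in both. Of 7 proliferation genes 3 were called higher (Mki67, Top2a and Ccnb1, none of them over replicates 1 to 3), with sums of 339 to 494 CPM in WT and 377 to 662 CPM in KSR23. Fat tissue also expresses the lipogenic genes, and of 7 adipocyte genes 2 passed the filter, of which 1 was called lower. Adipoq, Lep, Adig, Retn and Cfd did not pass the filter, Plin1 had 0 to 0.0734 CPM in WT and 0 to 0.199 CPM in KSR23, and Cidec, which enterocytes express too, was lower in KSR23 (575 to 602 against 254 to 428 CPM). Of 5 hepatocyte genes 3 were called lower and 1 higher (2 lower over replicates 1 to 3), and their sum was 436 to 943 CPM in WT and 8.96 to 75.8 CPM in KSR23. In WT that sum was nearly all Ttr (269 to 631 against 6.64 to 60.1 CPM) and Serpina1a (166 to 305 against 1.71 to 14.1 CPM), with Alb at or under 3.27 CPM in all 10 libraries. Of 7 acinar genes 4 passed the filter, and their summed CPM was 2.05 to 15.6 in WT and 1.06 to 2.68 in KSR23. Of these 4 genes 3 were called lower (2 over replicates 1 to 3). The sums were 1612 to 3666 and 1681 to 2269 for 6 smooth muscle genes (1 called lower). They were 866 to 1175 and 621 to 972 for 5 fibroblast genes (1 called lower). For 7 genes of enteric glia and neurons, of which only S100b was called, they were 63.9 to 88.6 and 15.7 to 23.8. For 6 leukocyte genes (2 called higher) they were 185 to 211 and 133 to 211. None of the smooth muscle, fibroblast or leukocyte genes was called over replicates 1 to 3. Without S100b (35.7 to 67.1 CPM in WT and 0.159 to 0.932 CPM in KSR23) the glia and neuron genes summed to 20.3 to 29.3 CPM in WT and 15.6 to 22.9 CPM in KSR23, with overlap. The part of these marker differences and of the exonic length trend in the result on the synthesis genes was not tested beyond the length offsets given above.

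Lists of neighbouring genes were compared in the same fit, where 9.73% of all tested genes were called higher and 8.76% lower. Over replicates 1 to 3 these shares were 2.01% and 1.35%. Among 17 genes of SREBP control and sterol uptake 5 were called higher and 0 lower over 10 libraries, with 3 at an unadjusted p under 0.05 in the lower direction, and 4 were called higher over replicates 1 to 3. Rnf145, a ubiquitin ligase of the endoplasmic reticulum, had 6.35, 7.50, 10.1, 6.80 and 7.28 CPM in WT and 32.7, 25.0, 34.9, 25.5 and 35.6 CPM in KSR23. Soat1, which esterifies cholesterol for storage, had 48.8, 49.0, 45.1, 46.5 and 49.9 CPM in WT and 140.4, 154, 131, 132 and 129 CPM in KSR23. In both genes all KSR23 libraries were at least 2 times the highest WT library, and both were called (edgeR log2 fold change 2.01 with a standard error of 0.28, adjusted p = 2.44e-10, and 1.98 with adjusted p = 0.0150 in replicates 1 to 3 for Rnf145, and edgeR log2 fold change 1.52 with a standard error of 0.23, adjusted p = 2.95e-09, and 1.61 with adjusted p = 0.0296 in replicates 1 to 3 for Soat1). By the quasi-likelihood test over replicates 1 to 3 neither was called (adjusted p = 0.0928 and 0.108).

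In the list of 8 LXR-regulated and sterol efflux genes only Abca1, which exports cholesterol to lipoproteins, was called (1.73 to 3.51 CPM in WT and 3.81 to 6.20 CPM in KSR23; edgeR log2 fold change 1.08 with a standard error of 0.32, adjusted p = 0.00739, and 1.49 with adjusted p = 0.126 in replicates 1 to 3). Of 18 further genes of fatty acid synthesis 17 passed the filter, and 5 were called higher and 0 lower (Pgd, Elovl7, G6pdx, Hsd17b12 and Aacs), of which only Pgd was called over replicates 1 to 3 (log2 fold change 1.97, adjusted p = 0.0284 by edgeR). Pgd and G6pdx, the NADPH-producing dehydrogenases of the pentose phosphate pathway, had log2 fold changes of 1.79 (SE 0.33) and 1.12 (SE 0.31). Elovl7 and Hsd17b12, which act in fatty acid elongation, had 1.70 (SE 0.43) and 0.88 (SE 0.25). Aacs, which activates acetoacetate, was not called by the quasi-likelihood test. No gene in this list had an unadjusted p under 0.05 in the lower direction. Of 8 genes of the dolichol, ubiquinone and prenylation branch 0 were called by either edgeR test and 1 by DESeq2 (Pdss2), and 2 had an unadjusted p under 0.05, both higher.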

How the data were processed

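Total RNA of jejunum (100 pg) was primed with oligo-dT, amplified with a SMART-Seq v4 kit, tagged with Nextera XT and read from 1 end for 75 bases. The authors mapped reads to mm10 with TopHat2 2.1.0 and counted them per gene with HTSeq 0.6.1p1 by strict intersection, with no strand setting stated, and also used edgeR 3.18.1 per the submitters' processing notes. The deposited counts were whole numbers per gene, neither normalized nor filtered. No molecular identifiers were used, so depth limits cover counting error only. Alignments counted as not unique (8.62 to 17.1 M per library) entered no gene and no total. Reads that strict intersection assigned to no gene (6.20% to 10.2%) or that were ambiguous between genes (1.55% to 1.72%) did not enter the totals either.

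Counts were fitted in edgeR 4.0.16 (R 4.3.3) with TMM factors, trended and gene-wise dispersions and the group as the only term, with the likelihood ratio test of the study's methods. Their filter on genes under 5 counts can be read as 5 or more counts in at least 1 library (17632 genes, used here) or in every library (13181 genes, an alternative). Replicates 4 and 5 were fitted as non-negative weighted sums of replicates 1 to 3 by least squares, weighted by the inverse of the mean, a check added after seeing the data. SE came from the fitted model, and the fits were tested on simulated data. Alternatives used the quasi-likelihood test, DESeq2 1.42.0, other scalings, filters and libraries. Exonic lengths, positions (1-based, mm10) and 75-base stretches shared between genes came from GENCODE M21, in which all 31 genes were found. Groups came from the sample titles. All 31 genes are named. Genes of neighbouring lists were named if called, with values for up to 4 by adjusted p. The genes and lists were chosen with earlier results of these data known. Some genes of the neighbouring lists enter the counts and are not reported here by name.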

Additional observations from a re-analysis of the deposited data

Results flagged for a closer look

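Dhcr7 was low in WT replicate 3. Its log2 CPM there (prior count of 2) was 3.316, and the next WT library had 4.261, so that the gap was 0.781 of the range of the 5 WT libraries and above the 95% critical value of Dixon's gap test of 0.71. This was the single such value among 62 groups of 5 libraries (31 genes in each group), where 3.1 are expected by chance. Without WT replicate 3, Dhcr7 remained called (log2 fold change 1.29). Replicates 4 and 5 were nearly sums of the others, so that the 5 values are not independent as the gap test assumes.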

How the results depend on the processing

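All 16 called genes kept their direction under all alternatives tried, and 0 of the 31 genes were called lower under any. Of the counts, that of synthesis genes called higher moved by over 1.5 times in replicates 1 to 3 (2 by likelihood ratio, 0 by quasi-likelihood, against 16) and with the Y-linked share as a covariate (7). Neighbouring genes called higher moved from 11 to 5 and 0 in replicates 1 to 3 by these tests. Those called lower moved from 0 to 1 with DESeq2 and with length offsets, to 2 with library totals alone, to 2 with the Y-linked share (Abcg5 and Coq2) and to between 0 and 1 without 1 library (Npc1 without KSR23 replicate 1, Npc2 without KSR23 replicate 3). All genes called moved from 3261 to 579 and 140 in replicates 1 to 3. The cause was not tested, beyond the smaller number of libraries.

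The sign changed in 7 genes, none of them called. With library totals alone it was -0.0341 for Pmvk and -0.111 for Ebp. With DESeq2 or RLE factors it was -0.0238 and with 5 or more counts in every library -0.00978 for Ebp. With the Y-linked share it was -0.356 for Pmvk, -0.151 for Nsdhl, -0.446 for Ebp and -0.24 for Me1. In replicates 1 to 3 Acaca had 0.36 (likelihood ratio) and 0.363 (quasi-likelihood). Without 1 library the values ran from -0.0888 to 0.274 for Pmvk, -0.142 to 0.193 for Ebp, -0.507 to 0.061 for Srebf1, -0.41 to 0.817 for Insig1, -0.301 to 0.0823 for Acaca and -0.291 to 0.385 for Me1. Scd1 gave no value with 5 or more counts in every library.

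With a replicate block 11 synthesis genes were called higher and 0 lower. Of all tested genes 12.5% were then called, and 49.1% of those calls were higher in KSR23. Fdps, Fdft1, Hsd17b7, Sc5d and Stard4 were lost. Ebp (-0.0279), Insig1 (-0.462) and Me1 (-0.0409) changed sign. The numbers do not pair the libraries. The deviations of same-numbered libraries correlated at -0.55 to 0.25, and for no number was the best partner its own.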

Other observations

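The libraries high and low in Insig1 were largely those high and low in Slc25a1, the mitochondrial citrate carrier, a pattern picked after its values were seen. Slc25a1 had 19.3, 159, 259, 104 and 71.2 CPM in WT replicates 1 to 5 and 242, 29.5, 22.1, 151 and 26.9 CPM in KSR23 replicates 1 to 5. Like Insig1 it was lowest in WT replicate 1 and highest in WT replicate 3, and within KSR23 it was high in replicates 1 and 4 and low in the other 3. Acss2, the cytosolic acetyl-CoA synthetase, had 2.17, 14.1, 9.65, 7.57 and 3.87 CPM in WT and 19.4, 5.93, 3.18, 15.0 and 5.36 CPM in KSR23, also highest in KSR23 replicates 1 and 4. Neither gene was called between the groups (Slc25a1 edgeR log2 fold change -0.38 with a standard error of 0.73, adjusted p = 0.781; Acss2 edgeR log2 fold change 0.39 with a standard error of 0.57, adjusted p = 0.704). Genes outside lipid synthesis had the same libraries high and low. Cdx2, an intestinal transcription factor, had 6.22, 27.9, 42.7, 16.4 and 13.7 CPM in WT and 98.6, 8.61, 6.44, 54.4 and 7.57 CPM in KSR23, and Fnta, a prenyltransferase subunit, had 9.44, 53.1, 92.4, 36.2 and 23.8 and 82.1, 7.51, 10.2, 55.2 and 8.84 CPM, so that the pattern was not particular to lipid genes. Replicate 4 of KSR23 was in largest part replicate 1 by weight.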
